A study of Mus musculus with 15 samples.

Results

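Gadd45a, Perp, Tigar, Sfn, Gls2, Fdxr, Triap1, Gpx1, Sco2 and Siva1 are 10 known p53 target genes at which p53 ChIP-seq of mouse organs gave no nearby region. They were selected on that absence: no region of the liver, spleen or thymus list lay inside them or within 5 kb of them. They are 10 of 21887 protein-coding genes, and 18456 coding genes (84.3%) met the same condition. The absence of regions within 5 kb therefore chose these genes and is not a result about them. What follows is where the nearest region did lie, how it ranked and which genes stood in between.

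The study sequenced DNA recovered with p53 (the product of Trp53) from whole organs of wild-type (WT) mice. Each organ had 5 libraries: 2 of untreated mice, 2 of mice given X-rays (2 Gy, 3 h) and 1 of input chromatin. No other allele or agent is named for these groups, and neither the age of the mice nor the antibody is given in the sources used here. The authors deposited 1 list of regions per organ, with 3872 regions in liver, 2604 in spleen and 2405 in thymus, drawn from 4137 distinct regions. Every library of an organ, untreated and input included, carries the label of the same list, so no value belongs to a single library. The name of each list holds the terms irrad and IgG, and so refers to irradiation and to IgG. Which libraries entered a list remains unknown, and no value was assigned to a treatment here. Irradiated and untreated organs were not compared here, values have no replicate error, and read depth is unknown. Scores start at 7.0 in each list, so absence from a list does not show that p53 was not bound.

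p53 is stabilised after DNA damage and activates genes for cell cycle arrest, DNA repair, apoptosis, survival and metabolism. It binds DNA as a tetramer, and its response element is a pair of similar decamers with a short spacer, often in a promoter or an early intron and at some genes far away. The 10 genes cover those outputs. Gadd45a encodes a growth arrest and DNA damage protein and Sfn the arrest adaptor 14-3-3 sigma. Perp encodes a membrane protein of desmosomes that acts in apoptosis, Siva1 a pro-apoptotic adaptor and Triap1 an inhibitor of apoptosis. Tigar encodes a bisphosphatase that slows glycolysis, Gls2 the mitochondrial glutaminase typical of liver, Fdxr ferredoxin reductase, Sco2 a copper chaperone for cytochrome c oxidase and Gpx1 the peroxide-reducing glutathione peroxidase.

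Promoter sequence was searched for the p53 decamer consensus, to show what the letters next to these genes hold where no region was called. RefSeq promoters (GRCm38.p6, the assembly of mm10; 250 bases before the start site and 50 after it) were in the table for 8 of the 10 genes, and those of Perp and Gls2 were not. A pair of decamers with intact central C and G, up to 13 bases between them and up to 3 mismatches in all was found in 6 of the 8 promoters. The same search found such a pair in 15.2% of 21263 promoters of coding genes, and in 18 of 63 promoters of other p53 targets. Those 63 promoters belong to 46 genes, some with more than 1 promoter, while each of the 8 genes has 1. The consensus is its own reverse complement, so both strands were covered, and no other motif was searched. The 6 best pairs follow, written along the strand of the gene, with the decamers in capitals and the spacer in lower case.

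Gadd45a, chr6:67037438-67037463, minus strand, 2 mismatches: GGACCTGGTTggctgaGGGCTAGCCC

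Sfn, chr4:133602322-133602353, minus strand, 3 mismatches: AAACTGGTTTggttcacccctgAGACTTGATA

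Siva1, chr12:112644811-112644831, plus strand, 3 mismatches: GGGCCCGTTTgAGGCGAGCCC

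Tigar, chr6:127109746-127109765, minus strand, 3 mismatches: GGTCTAGCTCTGGCAAGACT

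Fdxr, chr11:115277067-115277094, minus strand, 3 mismatches: GGGCATGGTTctctttggGGGCGTGGTT

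Gpx1, chr9:108339059-108339083, plus strand, 2 mismatches: AGACTAGTGCtacagGAGCTAGACC

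A single decamer without any mismatch occurred in the promoters of Gadd45a and Siva1, against 7.37% of all coding promoters. That of Gadd45a is the second decamer of its pair, at position -40 from the start site. That of Siva1 stands apart from its pair, at position -218. The best pairs in Triap1 and Sco2 had 6 and 5 mismatches. With up to 2 mismatches the count fell to 2 of 8, Gadd45a and Gpx1, against 3.77% of coding promoters. With up to 4 mismatches it stayed at 6 of 8, while the share of coding promoters rose to 40.8%. Among the 63 promoters of other p53 targets the counts were 8 with up to 2 mismatches and 31 with up to 4. The matches at the 8 genes describe letters in a window. None of them lay under a region in any organ list, but the rule that chose the genes fixed that in advance. Whether p53 binds them was not tested.

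The nearest regions were closest in the liver list. Their distance from the gene body had a median of 50.31 kb for the liver list, 145.0 kb for the spleen list and 85.18 kb for the thymus list. For the 18456 coding genes without a region within 5 kb the medians were 175.1, 276.1 and 304.1 kb. By the rule, 0 of the 10 genes had a region within 5 kb in any list, against 15.2%, 8.11% and 7.17% of all coding genes (liver, spleen, thymus). A region lay within 25 kb of 4 genes by the liver list, 2 by the spleen list and 3 by the thymus list, and the shares among the 18456 genes were 10.8%, 6.42% and 5.92%. Within 100 kb the counts were 8, 4 and 6 of 10, against 35.8%, 24.5% and 22.8%. Shortening the lists by score to the length of the thymus list left the medians and counts of the 10 genes as they were. This could not change them: the thymus list was not cut, and every nearest liver and spleen region scored high enough to be kept. The medians and shares of the 18456 genes were not computed at equal length. The order of the organs was not tested, and depth can differ between them.

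**Figure D1:**
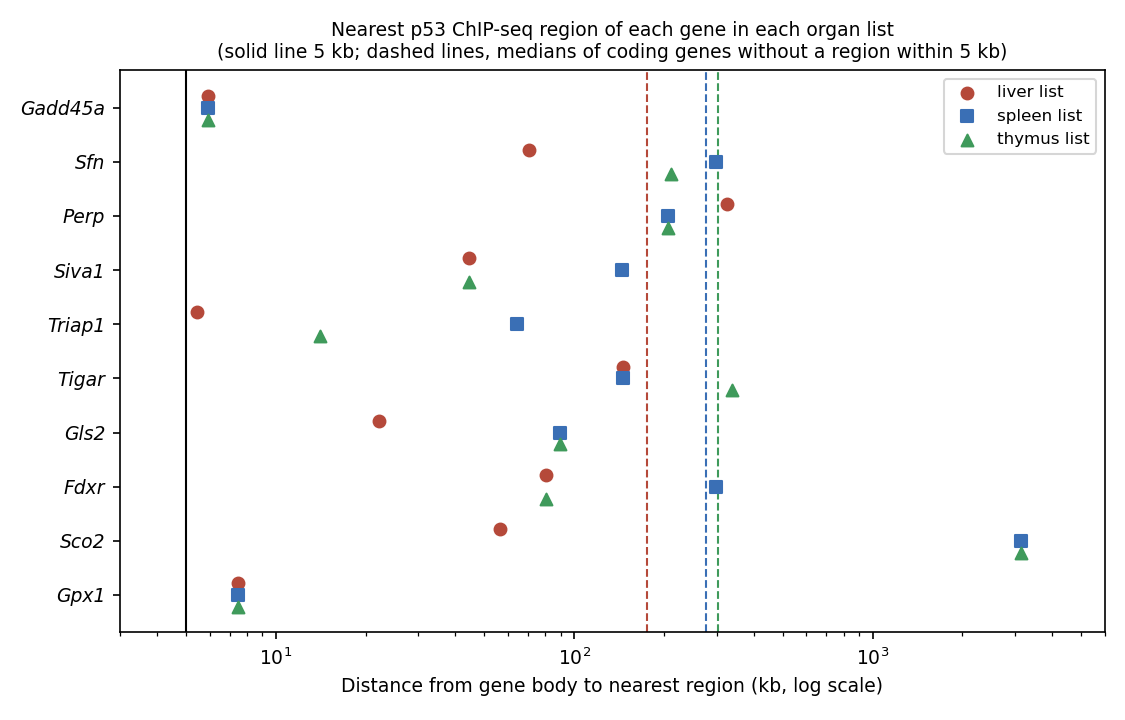
Distance from each gene body to the nearest region in the liver (circles), spleen (squares) and thymus (triangles) lists, in kb on a log axis, with the 5 kb limit of the rule as a solid line and the organ medians of the 18456 coding genes without a region within 5 kb as dashed lines. Gadd45a and Gpx1 sit beside the limit in every list, and Sco2 is at 3149279 bp in spleen and thymus.

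At 9 of the 10 genes another coding gene reached into the gap in every list. A region within 100 kb with 0 coding genes in between was found for 1 of the 10 genes in each organ, Gadd45a, against 7.06%, 5.66% and 5.33% of the 18456 genes (liver, spleen, thymus). Counting only coding genes that lie wholly in the gap, Gpx1 joined it, which made 2 genes in each organ. Of the nearest regions, 7 by the liver list, 6 by the spleen list and 7 by the thymus list lay within 5 kb of another coding gene. The shares for the 18456 genes were close to these, at 76%, 63.1% and 62.3%. Inside a coding gene lay 6, 5 and 6 of them, against 59.4%, 50.3% and 49.7%. Gadd45a was also the single case of the 10 in which the coding gene nearest to the region was the p53 target itself, as it was for 3.12%, 3.3% and 3.22% of the 18456 genes. None of the 20 distinct nearest regions lay within 5 kb of any other gene on the p53 target list used here. The share for the 18456 genes was not computed, so this is not read as a trait of the 10 genes.

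Among the arrest and repair genes, Gadd45a had the same nearest region in all 3 lists. It spanned 150 bp on chromosome 6 (67029001 to 67029150, mm10), 5945 bp beyond the downstream end of the gene (67035096 to 67037407, minus strand) and 8257 bp from its start site. It lay inside no annotated gene, and no gene of any kind stood in the gap. Score percentile is the rank of a region from the lowest score upward, in percent of the list length, with ties averaged. For this region it was 83.8 in the liver list, 44.3 in spleen and 28.2 in thymus. The rank was thus highest in liver, and the region stayed the nearest among the top 25% of liver scores. On the other side of Gadd45a the next region was 229393 bp away in liver, at the 9.71 percentile, and 1373093 bp away in both lymphoid lists. An intronic p53 element is textbook knowledge for Gadd45a. The rule chose the gene for having no region inside it, so whether that element was bound was not tested.

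Sfn, on chromosome 4 (133600556 to 133602168), had a different nearest region in each list, all of them upstream. In liver it lay 70432 bp away inside Pigv, a mannosyltransferase gene (133672601 to 133672750; percentile 58.3), with Zdhhc18 and Pigv reaching into the gap. The thymus region was 211232 bp away (133813401 to 133814350) and ranked low, at percentile 9.63, while the same region ranked at 44.0 in liver. The spleen region was 297932 bp away (133900101 to 133900450; 77.2), beyond Arid1a, a chromatin remodeller gene, and Rps6ka1, and ranked at 83.8 in liver and 79.5 in thymus. The number of coding genes in the gap was 2, 5 and 4 in liver, spleen and thymus. No list thus held a region of Sfn nearer than that at Pigv.

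Of the apoptosis and survival genes, Perp was far from any region. It lies on chromosome 10 (18845071 to 18857073), and the nearest liver region was 325727 bp away (19182801 to 19183450; percentile 77.6). That region ranked higher in the lymphoid lists, at 97.4 in spleen and 96.5 in thymus. The nearest region in those lists was closer, 206227 bp away (19063301 to 19063450; 33.5 and 35.3), and was absent from the liver list. Both lay beyond Tnfaip3, which encodes the NF-kB inhibitor A20 and was the single coding gene in the gap. Tnfaip3 was also the coding gene nearest to each region, at 167390 and 47890 bp.

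Siva1, on chromosome 12 (112644828 to 112649152), had its nearest liver and thymus region 44348 bp downstream (112693501 to 112693750). This region ranked at 77.2 in liver and 10.6 in thymus and was not in the spleen list. Akt1, a survival kinase gene, and Zbtb42 lay in the gap. The spleen region was 144748 bp away inside Ahnak2 (112793901 to 112794050; 74.0), with 6 coding genes reaching into the gap. On the upstream side the first region was 1106177 bp away by the liver list and 1679977 bp by the lymphoid lists.

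Triap1 had the nearest liver region of the 10 genes, 5447 bp away on chromosome 5 (115349001 to 115349150; percentile 71.7). It lay 42 bp from Cox6a1, a cytochrome c oxidase subunit gene that lies in the gap, and was in the liver list alone. A further region 14080 bp upstream of Triap1 (115327101 to 115327150) lay 12 bp from Srsf9, a splicing factor gene, and ranked at 34.5 in liver and 14.2 in thymus. The nearest spleen region was 64280 bp upstream (115276801 to 115276950; 87.4), with Coq5, Dynll1, Srsf9 and Gatc in the gap, and was in the spleen list alone. Each organ thus gave Triap1 another nearest region, and each was closer to a different coding gene.

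Among the metabolic genes, Gpx1 had its nearest region at the same place in all 3 lists. It covered 50 bp inside Usp4, a deubiquitinase gene, 7458 bp downstream of Gpx1 on chromosome 9 (108347801 to 108347850). Its percentiles were 64.4, 14.4 and 16.0 (liver, spleen, thymus). A second region in all 3 lists lay 21129 bp on the other side (108317701 to 108317950), inside the GTPase gene Rhoa, at 4.38, 32.7 and 20.1. A further one, in liver alone, lay 32729 bp away where Tcta and Rhoa meet (108305901 to 108306350; 74.5). With 3 liver regions within 100 kb, Gpx1 had the most of the 10 genes, and each of the 3 overlapped another coding gene.

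Gls2, on chromosome 10 (128194635 to 128210004), had a liver region 22096 bp away at a gene end inside Timeless, a replication fork gene (128232101 to 128232250; percentile 57.1). Spryd4, Mip and Timeless reached into the gap, and the region was in the liver list alone. In spleen and thymus the nearest region lay 89784 bp away on the other side, inside Baz2a (128104601 to 128104850), with Rbms2 in the gap. That region was in all 3 lists with percentiles of 6.61 (liver), 26.5 (spleen) and 95.4 (thymus). Among the 10 genes and 3 lists, 95.4 was the highest percentile of a region in the list where it was the nearest.

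Fdxr, on chromosome 11 (115268024 to 115277101), had its nearest liver and thymus region 80573 bp downstream inside Nat9 (115187401 to 115187450). It covered 50 bp, ranked at 80.8 in liver and 9.48 in thymus, and was not in the spleen list. The spleen region was 298873 bp away (114969001 to 114969150; 76.8), beyond 13 coding genes that include a cluster of Cd300 immune receptor genes.

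Tigar, on chromosome 6 (127085116 to 127109552), shared a nearest region between liver and spleen. It lay 145265 bp downstream at a gene end inside Rad51ap1, a homologous recombination gene (126939601 to 126939850; percentiles 76.6 and 16.7), past D6Wsu163e, Fgf6 and Fgf23. The thymus list held no region there, and its nearest lay 337148 bp upstream inside Parp11 (127446701 to 127446850; 12.2), past Ccnd2, the cyclin D2 gene. That upstream region was in the other lists as well, at 73.7 in liver and 16.4 in spleen.

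Sco2, on chromosome 15 (89371630 to 89373891), differed most between lists. Its liver region lay 56279 bp downstream inside Sbf1 (89315301 to 89315350; percentile 55.4), past Adm2, Miox, Lmf2 and Ncaph2, and was in liver alone. In spleen and thymus the nearest region was 3149279 bp away inside Tbc1d22a (86222001 to 86222350; 82.4 and 73.8), with 27 coding genes reaching into the gap. The stretch around Sco2 without any region measured 6.81 Mb in both lists. In liver it was long as well, at 3.71 Mb, and 119 of 3851 stretches in that list were at least as long. Of 2583 stretches between neighbouring regions in the spleen list 29 were at least as long, and of 2384 in the thymus list 33. Among the 18456 coding genes without a region within 5 kb, 96.8% had a nearer spleen region or one at the same distance.

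**Figure D2:**
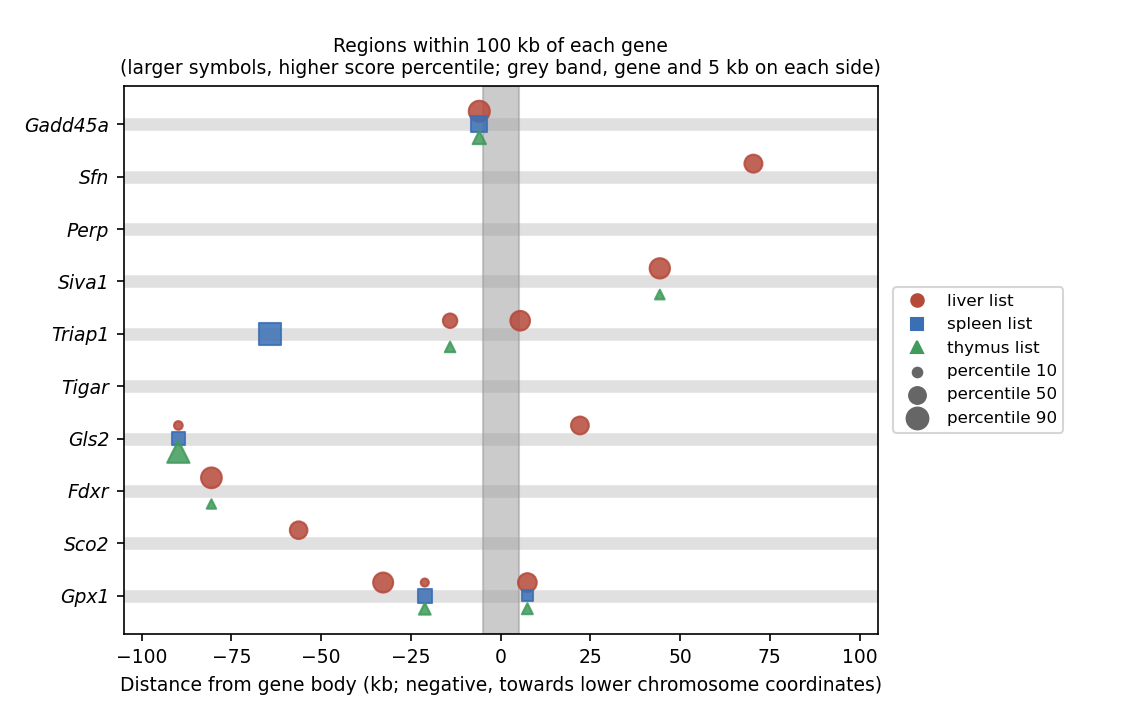
Regions within 100 kb of each gene by distance from the gene body in kb (negative values towards lower coordinates), with symbol shape and colour for the organ list and symbol size for the score percentile. Perp and Tigar have 0 regions in the window, Gadd45a has 1 region present in all 3 lists, and Gpx1 has 3 distinct regions.

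The nearest region ranked higher in liver than in thymus at 8 of the 10 genes, against 50.6% of the 18456 genes. In liver all 10 were above the 50 percentile (55.4 to 83.8, median 74.2), where 50.5% of the 18456 genes have such a nearest region. In spleen 5 were above it (14.4 to 87.4, median 59.1; 46.1% of the 18456 genes), and in thymus 2, those of Gls2 and Sco2 (9.48 to 95.4, median 15.1; 49.2%). Some of this contrast stood within single regions: the region at Nat9 near Fdxr ranked at 80.8 in liver and 9.48 in thymus, and that near Siva1 at 77.2 and 10.6. Others went the opposite way, as did the region in Baz2a near Gls2. Percentiles are ranks within lists of unequal length and say nothing of how much p53 was bound in each organ. Among the top 50% of scores of a list, the count within 100 kb was 8 of 10 by the liver list and 1 by each lymphoid list, where the shares of the 18456 genes were 22.2%, 12.8% and 11.7%. The liver count follows from the percentiles above, since all 10 nearest liver regions are in that top 50%, and is not a further result.

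**Figure D3:**
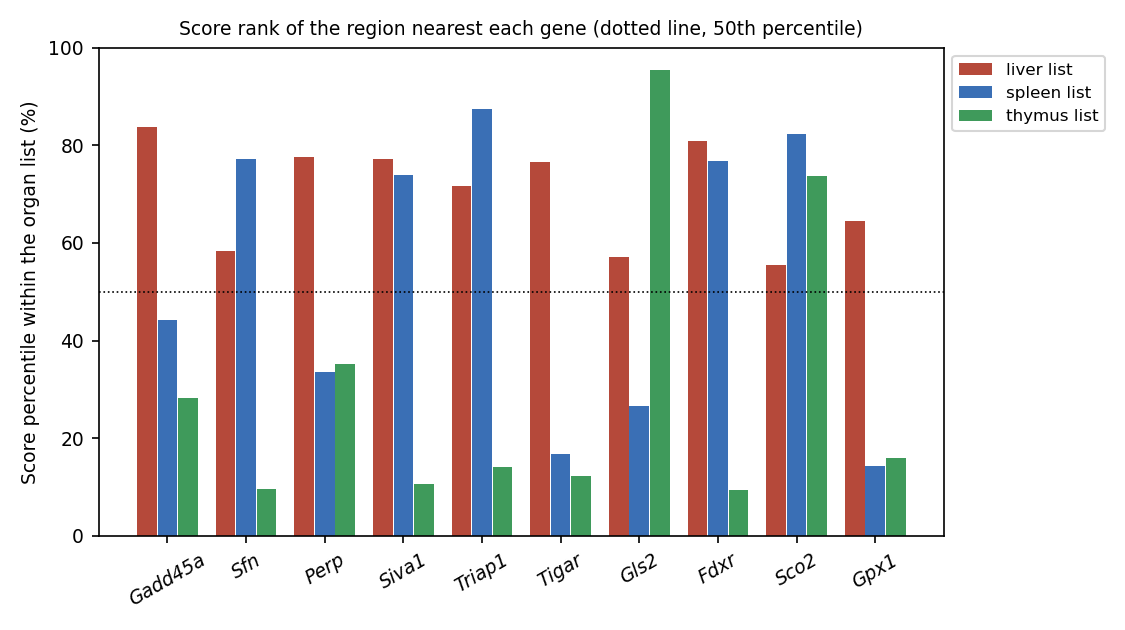
Score percentile, within each organ list, of the region nearest to each gene (bars by organ; dotted line at the 50 percentile). All 10 liver bars pass the line, and in thymus the bars of Gls2 (95.4) and Sco2 (73.8) do.

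Gadd45a and Gpx1, 2 of the 10 genes, had the same nearest region in the 3 lists, as had 44.8% of the 18456 genes. For 6 genes 2 different regions were nearest, and for Sfn and Triap1 there were 3, which gave 20 distinct nearest regions. Spleen and thymus had the same nearest region at 5 genes, against 72.3%. The liver list held the strictly nearest region at 4 genes, against 31.1%, namely Sfn, Triap1, Gls2 and Sco2. A strictly nearest region is by definition absent from the other lists. Of the nearest liver regions 5 had their midpoint within 1 kb of an end of an annotated gene, as had 2 in spleen and 4 in thymus; the shares for the 18456 genes were 50.7%, 28.5% and 26.8%. With 10 genes and no test, these counts show no trait particular to them.

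Most of the genes lie where coding genes are dense. The number of other coding genes within 100 kb had a median of 8 (1 for Gadd45a and Perp to 14 for Sco2), against 4 for all coding genes, with quartiles of 2 and 7. Above the upper quartile were 5 of the 10 genes. Within 1 Mb the liver list held 3 to 11 regions per gene, with a median of 5.5 against 4 for all coding genes. In spleen the range was 0 to 6 (median 3 against 3) and in thymus 0 to 5 (median 3 against 2). Sco2 was the gene with 0 in spleen and thymus, as were 15.2% and 16.4% of coding genes. How far gene density accounts for the distances was not tested.

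**Figure D4:**
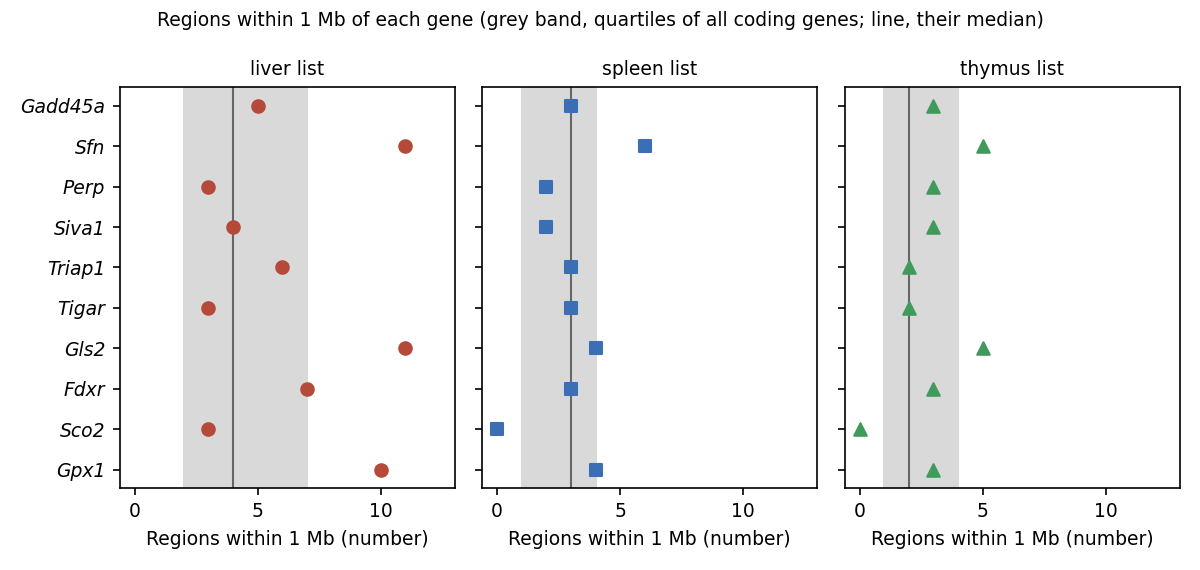
Number of regions within 1 Mb of each gene in the 3 organ lists (points), with the quartiles (grey band) and median (line) of all 21887 coding genes. Sfn and Gls2 have 11 liver regions each, and Sco2 has 0 in spleen and thymus.

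A list of 56 other p53 targets gives the setting. It leaves out the 10 genes, which were picked for having no region within 5 kb, so its counts are shaped by the same rule. Of these 56, the liver list gave 42 a region within 5 kb, the spleen list 37 and the thymus list 32. The shares of all coding genes were 15.2%, 8.11% and 7.17%. At 31 of the 56 a region overlapped the gene in all 3 lists. The share of all coding genes with such an overlap was not computed, so this count has no background beside it. The targets without a region within 5 kb in any list numbered 14, where 84.3% of all coding genes have none. By role they were 0 of 9 p53 regulators, 1 of 10 arrest genes, 2 of 12 apoptosis genes, 3 of 10 repair genes and 8 of 15 metabolic and redox genes. The 10 genes are in none of these role counts. For those 14 the median distance was 137.1 kb in liver and 216.0 kb in spleen and thymus. The medians for the 18456 coding genes without a region within 5 kb were 175.1, 276.1 and 304.1 kb. A region lay within 100 kb of 5, 4 and 5 of the 14, against 35.8%, 24.5% and 22.8% of the 18456 genes (liver, spleen, thymus). No test was made, since the genes were chosen with results known.

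Distances on either side of the 5 kb limit were as follows. Among the other targets, those just inside it were Sesn1 (523 bp in liver) and Zfp365 (38 bp in each list), and the rest overlapped a region. Just outside it, by the smallest distance over the lists, were Triap1 (5447 bp), Gadd45a (5945 bp) and Gpx1 (7458 bp) of the 10 genes. Next came Sat1, a polyamine enzyme gene (10975 bp), Xpc, a nucleotide excision repair gene (12354 bp), and Pltp (21592 bp) of the other targets. A limit of 10 kb would thus have taken in 3 of the 10 genes in liver and 2 in each lymphoid list. How many coding genes without a region within 5 kb in any list it would take in was not computed. A region at 7458 bp or nearer, the distance of Gpx1, was found for 1.64%, 0.899% and 0.818% of them (liver, spleen, thymus).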

How the data were processed

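The deposited data were 3 headerless region lists of 6 columns, 1 per organ, with boundaries on multiples of 50 bp. Column 5 is the authors' score, on a scale not given in the sources used here, and it served only as a rank percentile within its list, with ties averaged. Build mm10 comes from the submitters' processing notes. How regions were aligned, called, filtered or pooled was not given in the sources used here. Read depth is unknown.

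Genes came from RefSeq (GRCm38.p6): 49943 genes, 21887 of them coding. Distance is the number of bases between gene body and region edge. Genes in between are those that overlap that gap. Upstream and downstream follow the strand in the promoter table. Of 57 other targets listed, 56 matched a coding gene. The 10 genes and the lists were chosen with earlier results of these data known, and the rule for paired decamers was set with the files at hand. No significance test was made, because each organ has 1 list. Named by rule were the 10 genes, coding genes within 5 kb of or nearest to their nearest regions, and up to 3 other targets on each side of the 5 kb limit (inside it, 2 lay at a distance above 0). Genes in a gap and genes at further regions (Rhoa, Tcta) were named after their values were seen. The distance and gap functions were tested on simulated data. Analyses used Python 3.11.15, pandas 2.3.3 and numpy 2.4.6. Alternatives were score thresholds, equal list lengths, shared regions, other distance definitions and other limits.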

Additional observations from a re-analysis of the deposited data

How the results depend on the processing

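Distances moved with the score threshold and with the restriction to shared regions. Among the top 50% of scores the median distance was 50.31 kb in liver, as with all regions, and 312.3 kb in spleen and 467.8 kb in thymus, with 1 gene each in these lymphoid lists within 100 kb, 0 within 25 kb and 0 without a coding gene in the gap. Among the top 25% the medians were 260.2, 928.6 and 766.5 kb in liver, spleen and thymus, the counts within 100 kb 3, 1 and 1, those within 25 kb 1, 0 and 0, and Gadd45a no longer counted in spleen or thymus (0 genes without a coding gene in the gap). With regions of all 3 lists only, the median was 237.6 kb in each organ, 3 genes had a region within 100 kb in liver and 3 in thymus, and 2 within 25 kb in liver. From region midpoints the medians were 50.39, 145.1 and 85.25 kb. A limit of 10 kb gave 3, 2 and 2 genes with a region, and the share of coding genes at this limit was not computed. Counting coding genes wholly in the gap gave 2 genes in each organ. Pairs with up to 2 mismatches were in 2 promoters, and those with up to 4 mismatches in 6. These settings were added once the data had been seen. Lists of equal length and distance from the nearest gene end left all 10 nearest regions in each organ as they were. Counts of the other targets within the limit stayed within 1.5 times their value in the settings run. No paired analysis was possible because each organ has 1 list that belongs to no replicate. Leaving out a library was not possible for the same reason. Unknown depth limits every statement on a missing region.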
